A study of Rattus norvegicus with 35 samples.

Results

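The sinusoid of the liver is lined by endothelial cells and wrapped by stellate cells, and 10 genes used as markers of these cells were followed across the dose groups of a rat liver array study. Stab1, Stab2, Lyve1, Pecam1 and Kdr stood for the endothelium, and Pdgfrb, Des, Col1a1, Col3a1 and Lrat for the stellate cells. A gene was taken where a probe set, the group of short probes that reads a transcript on the array, was annotated with its symbol alone, and the probe set with the highest mean over all arrays was the main one. All 10 genes were found, out of 14217 genes with such a probe set, and they held 15 of the 31042 probe sets tested. Lyve1, Kdr and Col1a1 had 2 probe sets each and Pdgfrb had 3.

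The livers came from male Sprague Dawley rats that were 7 weeks of age when the study began. TBB, which is 2-ethylhexyl-2,3,4,5-tetrabromobenzoate, was given by gavage on 5 days, and the left liver lobe was taken 1 day after the last dose. Dose groups of 0.05, 0.55, 5.50, 55 and 550 mg/kg had 6 arrays each, and the vehicle group, which was gavaged with the same corn oil, had 5. The labels do not tie arrays to animals, so the p-values below measure the spread between these arrays, which may be technical. Values are log2 expression values, as made by the authors with RMA. Because a whole lobe was profiled, fewer cells of a type and less RNA per cell cannot be told apart.

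Sinusoidal endothelial cells carry scavenger receptors that clear waste molecules from blood. Stab1 and Stab2 encode such receptors (the stabilins), Lyve1 encodes a hyaluronan receptor, Pecam1 an adhesion molecule of cell junctions, and Kdr the main receptor for vascular endothelial growth factor. Stellate cells store vitamin A as retinyl esters, which the enzyme encoded by Lrat makes from retinol. After liver injury they can turn into contractile cells that lay down matrix. Pdgfrb encodes a receptor for platelet-derived growth factor that drives their growth, Des the intermediate filament protein desmin, and Col1a1 and Col3a1 the chains of fibrillar collagens.

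Promoters of 6 of the 10 genes were in the RefSeq promoter table (GRCr8). Lyve1, Kdr and Lrat are shown as examples. Their variation from array to array, described further on, went along with that of other markers on the lists for their cell type. That of Stab2, whose promoter is not printed, did so too. Each line gives 250 bases before the start site used by that table, 5′ to 3′ on the gene's strand, with matches to the searched motifs in capitals. That start site lies inside the gene's span in the RefSeq gene table for Kdr.
Lyve1 (chr1:174410978-174411227, minus strand): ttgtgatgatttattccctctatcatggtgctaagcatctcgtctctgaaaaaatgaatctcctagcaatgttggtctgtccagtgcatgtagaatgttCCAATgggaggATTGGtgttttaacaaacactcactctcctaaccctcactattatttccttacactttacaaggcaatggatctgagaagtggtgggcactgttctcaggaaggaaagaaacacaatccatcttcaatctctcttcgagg
Kdr (chr14:32571813-32572062, plus strand): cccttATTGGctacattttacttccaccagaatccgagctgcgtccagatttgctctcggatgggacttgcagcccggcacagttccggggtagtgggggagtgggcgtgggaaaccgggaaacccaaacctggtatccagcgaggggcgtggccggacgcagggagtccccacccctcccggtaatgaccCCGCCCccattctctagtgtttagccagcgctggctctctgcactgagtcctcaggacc
Lrat (chr2:170571213-170571462, minus strand): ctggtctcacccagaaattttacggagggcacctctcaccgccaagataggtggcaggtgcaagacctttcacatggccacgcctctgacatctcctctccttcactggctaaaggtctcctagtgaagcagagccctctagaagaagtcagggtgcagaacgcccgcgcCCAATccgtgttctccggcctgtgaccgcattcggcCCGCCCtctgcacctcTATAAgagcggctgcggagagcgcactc
Both strands were searched for the TATA box as TATAA, for the CCAAT box as its name spells it, for a GATA factor motif as GATAA and for the GC box as GGGCGG, and no match overlapped another. Lrat held TATAA from base -28 to -24, GGGCGG on the other strand from -44 to -39 and CCAAT from -80 to -76, counted back from the start site. Kdr held GGGCGG on the other strand from -59 to -54 and CCAAT on the other strand from -245 to -241. Lyve1 held CCAAT from -151 to -147 and, on the other strand, from -140 to -136. Among all 33469 promoters of that length in the table, 24.0% held TATAA, 34.0% CCAAT, 23.5% GATAA and 30.5% GGGCGG.

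The arrays carried their dose labels as far as the drug-metabolising gene Cyp1a1 shows it, which averaged 4.53 in vehicle, 4.47, 4.53 and 4.75 at 0.05, 0.55 and 5.50 mg/kg, 8.78 at 55 mg/kg and 11.86 at 550 mg/kg. Hepatocyte markers were bright in every group, with a mean between 13.21 and 13.36 over 10 genes in each array. The array of 5.50 mg/kg replicate 1 stood apart from the rest. Its mean correlation with the other arrays was 0.9918, against 0.9928 to 0.9950 for the others, and its difference between the 3′ and 5′ actin controls, which bears on RNA quality, was the highest of the 35 at 1.60. Differences, medians and counts at 5.50 mg/kg that moved by 1.5 times or more when it was left out are given with and without it.

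At the highest dose none of the 10 markers passed the test, and 9 of them had a mean below that of vehicle. The 95% intervals of the 10 differences reached from -0.60 (Pdgfrb) to 0.43 (Col1a1) on the log2 scale, so larger differences lie outside them. The test was limma's moderated two-sided comparison of group means in 1 fit of the 35 arrays, and p was adjusted by Benjamini-Hochberg over all 31042 probe sets with 0.05 as the threshold. At 550 mg/kg against vehicle, 0 of 10 members passed, where 0.499% of all probe sets did. The lowest adjusted p among the members was 0.355. At an unadjusted p under 0.05 stood 2 members, Stab1 and Pdgfrb, beside 8.67% of all probe sets. Of all probe sets 49.0% lay below vehicle in this comparison. In no member were the 6 arrays at 550 mg/kg and the 5 vehicle arrays fully separated, as they were for 1.34% of all probe sets.

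**Figure D1:**
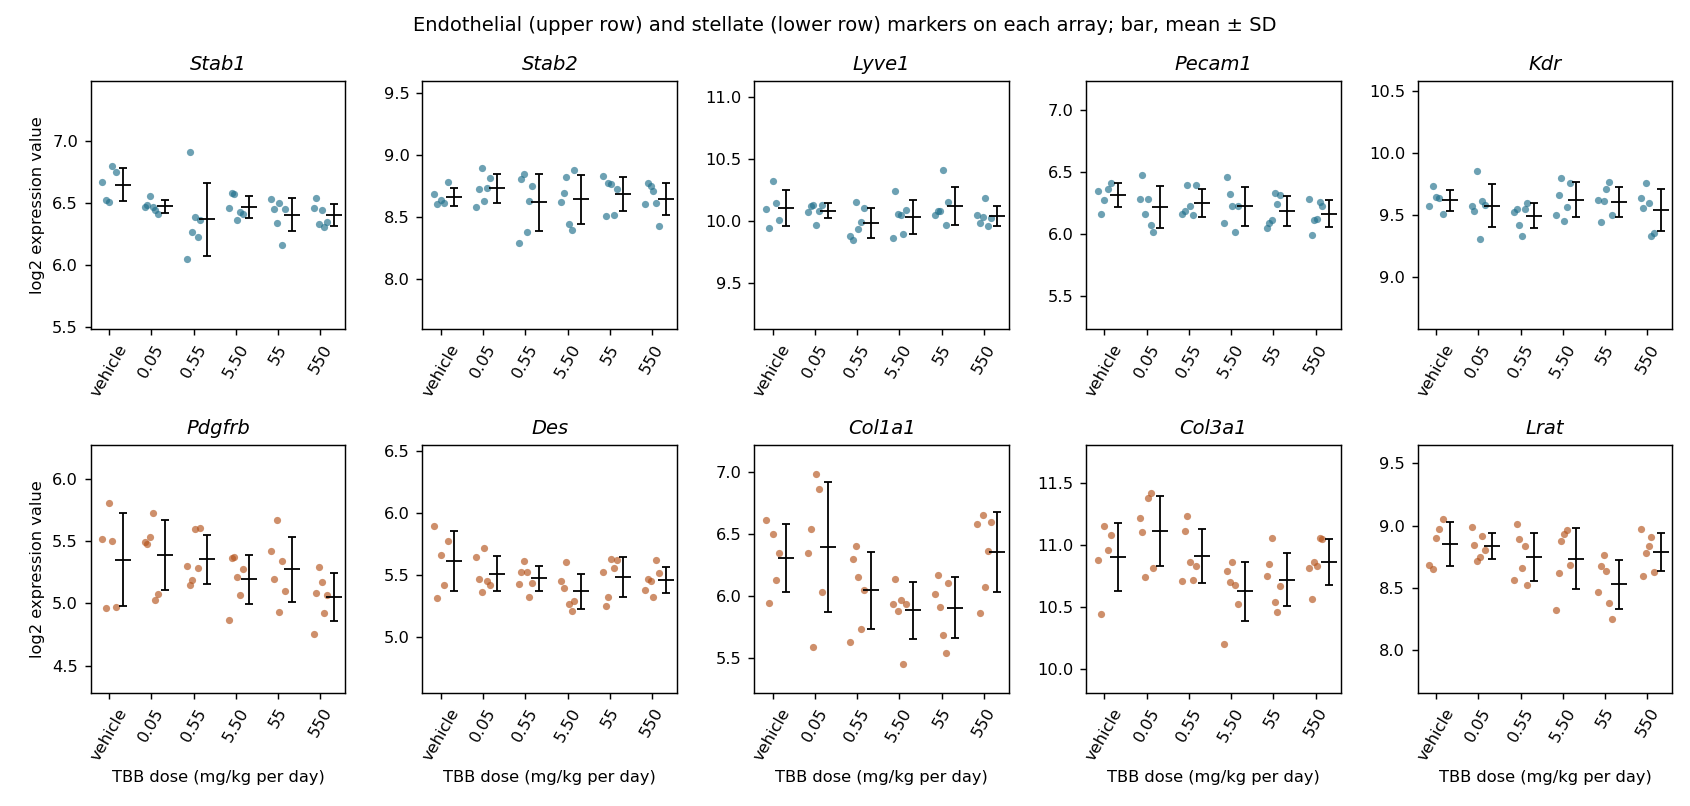
Log2 expression value of the main probe set of each of the 10 markers (vertical axis, each panel spanning the same number of log2 units) on each array, by TBB dose in mg/kg per day (horizontal axis, vehicle at the left). Points are single arrays and bars are the group mean ± SD, with 5 vehicle arrays and 6 arrays at each dose. Every dose group overlaps vehicle in all 10 panels, and Col1a1 spreads most widely, between 5.46 and 6.99.

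The scavenger receptor gene Stab1 had the largest difference of the 5 endothelial members at 550 mg/kg. Its values at 550 mg/kg ran between 6.31 and 6.54 with a median of 6.39, and the vehicle arrays read 6.67, 6.52, 6.51, 6.80 and 6.75. All 6 arrays at 550 mg/kg lay below the vehicle mean, though the highest of them stood above the lowest vehicle arrays. The difference was -0.24 ± 0.09 (SE), or 0.844 times vehicle, with a 95% interval of -0.43 to -0.06 and an adjusted p of 0.355 (limma). Every lower dose lay on the same side, with differences of -0.18 ± 0.09 at 0.05, -0.28 ± 0.09 at 0.55, -0.18 ± 0.09 at 5.50 and -0.24 ± 0.09 at 55 mg/kg. These are not separate pieces of evidence, because all 5 comparisons use the same 5 vehicle arrays. The estimates did not line up with the order of the doses, and 550 mg/kg differed from 55 mg/kg by -0.0017 ± 0.09. At 0.55 mg/kg Stab1 ranged between 6.05 and 6.92 around a median of 6.32, so that group held both its lowest and its highest array of the study.

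Its relative Stab2 was nearly level across the study. Stab2 read 8.43, 8.66 and 8.78 (lowest, median, highest) at 550 mg/kg, and 8.69, 8.61, 8.64, 8.61 and 8.78 in vehicle. The arrays at 550 mg/kg reached further down than the vehicle arrays and shared their upper end, so the groups overlapped. The difference at 550 mg/kg was -0.02 ± 0.09, with a 95% interval of -0.21 to 0.17. Group means from vehicle through the rising doses were 8.67, 8.73, 8.62, 8.64, 8.69 and 8.65. The pair of stabilins thus gave unlike values against vehicle, but whether they differed from each other was not tested.

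Lyve1 and Kdr lay near vehicle at 550 mg/kg. Their main probe sets stood at percentiles 95.2 and 93.3 of all probe sets by mean value. Lyve1 ran between 9.97 and 10.19 with a median of 10.03 at 550 mg/kg, against vehicle arrays at 10.10, 9.95, 10.32, 10.15 and 10.01. The dosed arrays lay inside the vehicle range, and the difference was -0.06 ± 0.07 (95% interval -0.21 to 0.09). Its other probe set gave a median of 9.94 at 550 mg/kg and 10.03 in vehicle. Kdr ran between 9.33 and 9.76 with a median of 9.58 at 550 mg/kg, against 9.58, 9.74, 9.65, 9.64 and 9.51 in vehicle. Here 2 of the 6 dosed arrays, at 9.33 and 9.35, lay under all vehicle arrays, and the difference was -0.08 ± 0.08 (95% interval -0.25 to 0.09). The other probe set of Kdr, at percentile 38.5, averaged 4.36 ± 0.07 (SD, n = 6) at 550 mg/kg and 4.42 ± 0.20 (SD, n = 5) in vehicle. At 55 mg/kg the main probe sets of Lyve1 and Kdr differed from vehicle by 0.02 ± 0.07 and -0.01 ± 0.08.

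Pecam1 ran between 5.99 and 6.28 with a median of 6.17 at 550 mg/kg, against 6.35, 6.16, 6.27, 6.36 and 6.41 in vehicle. All 6 dosed arrays lay below the vehicle mean of 6.31 while overlapping its lower values. The difference was -0.15 ± 0.08, with a 95% interval of -0.31 to 0.01 and an adjusted p of 0.632 (limma). Group means were 6.21, 6.25, 6.22, 6.19 and 6.16 at the rising doses, so all 5 lay under vehicle. Taken as a list, the 5 endothelial members had median differences of -0.043, -0.117, -0.071, -0.012 and -0.080 at 0.05, 0.55, 5.50, 55 and 550 mg/kg, beside medians of all probe sets between 0.001 and 0.004. The median at 5.50 mg/kg was -0.037 without replicate 1.

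Among the stellate members, the growth factor receptor Pdgfrb had probe sets that disagreed. The main one ran between 4.75 and 5.30 with a median of 5.08 at 550 mg/kg, against 5.52, 4.96, 5.81, 5.51 and 4.97 in vehicle. The vehicle arrays split into 3 high and 2 low values, and the dosed arrays covered the space around the low ones. The difference was -0.30 ± 0.15 (95% interval -0.60 to -0.01, adjusted p = 0.555, limma). The other probe sets averaged 5.09 ± 0.10 and 4.74 ± 0.09 at 550 mg/kg (SD, n = 6), against 4.99 ± 0.21 and 4.71 ± 0.17 in vehicle (SD, n = 5), so both lay on the opposite side. Over the 35 arrays, with group means subtracted, these other probe sets followed each other (Pearson's r = 0.73) but not the main one (r = -0.34 and -0.31). The sign of the Pdgfrb difference therefore depends on the probe set.

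The filament gene Des ran between 5.32 and 5.62 with a median of 5.46 at 550 mg/kg, against 5.89, 5.31, 5.66, 5.42 and 5.77 in vehicle. The vehicle arrays spanned the wider range and enclosed every dosed array. The difference was -0.15 ± 0.09 at 550 mg/kg and reached -0.24 ± 0.09 at 5.50 mg/kg (unadjusted p = 0.0105, adjusted p = 0.998, limma). Without the array that stood apart it was -0.26 at that dose.

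Col1a1 and Col3a1, the collagen genes, had their lowest group means at 5.50 mg/kg and lay near vehicle at 550 mg/kg. Col1a1 ran between 5.86 and 6.66 with a median of 6.47 at 550 mg/kg, against 6.62, 5.95, 6.50, 6.13 and 6.35 in vehicle. These groups occupied nearly the same range, and the difference was 0.05 ± 0.19. At 55 mg/kg Col1a1 ran between 5.54 and 6.17 with a median of 5.97, and at 5.50 mg/kg between 5.46 and 6.14 with a median of 5.94. At both doses all 6 arrays lay below the vehicle mean of 6.31 while overlapping the lower vehicle arrays. The differences were -0.40 ± 0.19 at 55 and -0.42 ± 0.19 at 5.50 mg/kg, 0.757 and 0.746 times vehicle, with adjusted p of 0.999 and 0.998 (limma). The group at 0.05 mg/kg spread most, between 5.59 and 6.99, and its mean was 6.39 ± 0.52 (SD, n = 6). The other probe set of Col1a1 followed the main one over the arrays (r = 0.77) and had the same order of the doses, averaging 5.32, 5.57, 5.24, 5.01, 5.02 and 5.33 from vehicle through the rising doses.

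Col3a1 ran between 10.56 and 11.06 with a median of 10.85 at 550 mg/kg, against 10.88, 10.45, 11.15, 10.96 and 11.08 in vehicle. The dosed arrays lay inside the vehicle range, and the difference was -0.04 ± 0.14. Its lowest group was 5.50 mg/kg, with arrays between 10.20 and 10.87 and a difference of -0.28 ± 0.14 (95% interval -0.55 to -0.0009, unadjusted p = 0.0493, adjusted p = 0.998, limma). The array at 10.20 was 5.50 mg/kg replicate 1, and without it the difference was -0.19. At 0.05 mg/kg Col3a1 stood above vehicle by 0.21 ± 0.14.

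Lrat, the vitamin A storage enzyme, had its lowest group at 55 mg/kg. There it ran between 8.25 and 8.76 with a median of 8.55, against 8.69, 8.65, 8.90, 8.97 and 9.05 in vehicle. All 6 arrays lay below the vehicle mean, and 2 of them overlapped the lowest vehicle arrays. The difference was -0.33 ± 0.11, 0.797 times vehicle, with a 95% interval of -0.54 to -0.11 (unadjusted p = 0.0044, adjusted p = 0.999, limma). At 550 mg/kg Lrat ran between 8.59 and 8.97 with a median of 8.81, and differed from vehicle by -0.07 ± 0.11. All 6 arrays at 550 mg/kg lay above the mean at 55 mg/kg, by 0.26 ± 0.10 between the group means (unadjusted p = 0.016, adjusted p = 0.352, limma). The 5 stellate members had median differences of 0.037, -0.106, -0.244, -0.183 and -0.068 at 0.05, 0.55, 5.50, 55 and 550 mg/kg, and -0.192 at 5.50 mg/kg without replicate 1.

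**Figure D2:**
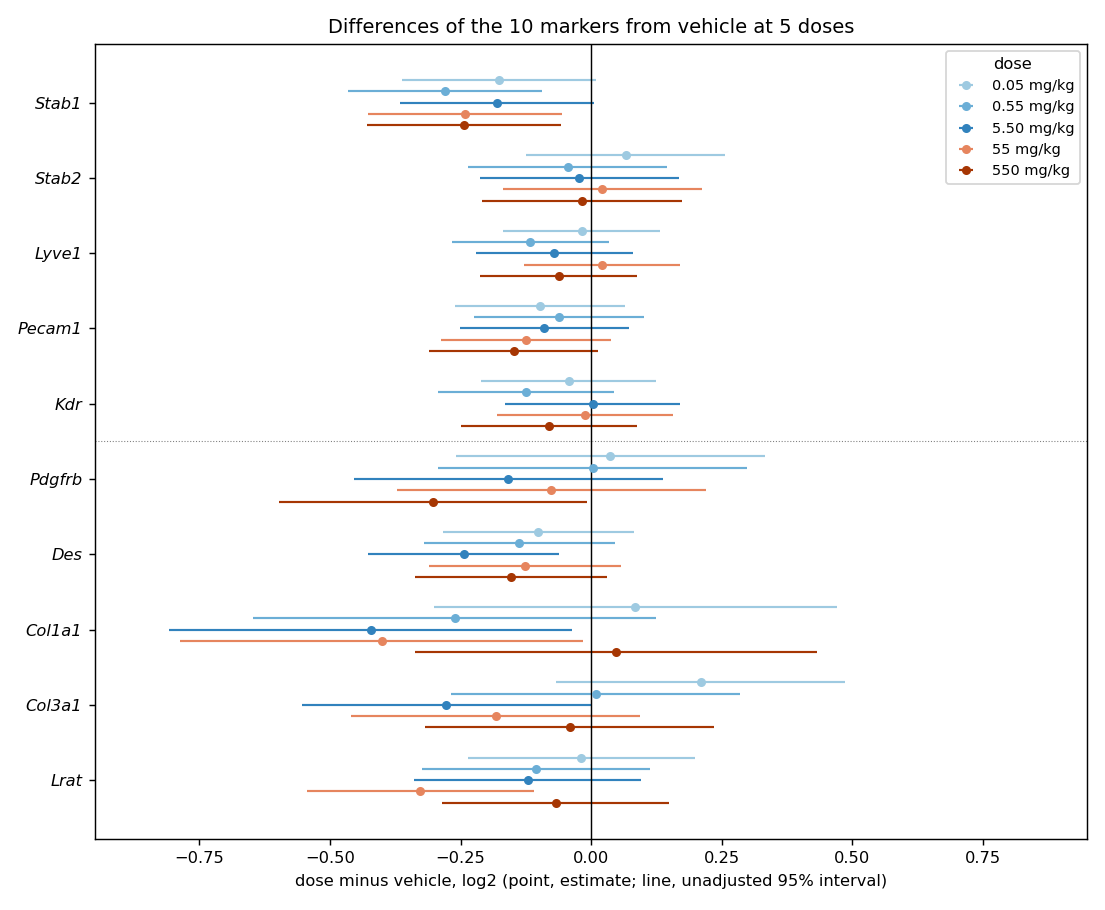
Difference of each of the 10 markers from vehicle (horizontal axis, log2, dose minus vehicle) at the 5 doses, with the doses in rising order from top to bottom within each gene. Points are estimates of limma and lines unadjusted 95% intervals, and the dotted line divides endothelial from stellate genes. The Stab1 points all lie at the left of 0, between -0.28 and -0.18, while Col1a1 runs between -0.42 and 0.08.

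At the lower doses the members passed the test no more than at the highest. At 55 mg/kg 0 of 10 passed, where 0.00644% of all probe sets did, and 3 of 10 (Stab1, Col1a1 and Lrat) stood at an unadjusted p under 0.05, beside 4.20% of all. At 5.50 mg/kg 0 of 10 passed, where 0% of all did, and 3 of 10 (Des, Col1a1 and Col3a1) stood at an unadjusted p under 0.05, beside 4.95% of all. Leaving out replicate 1 of that group, the members at an unadjusted p under 0.05 were 2 (Des and Col1a1), beside 3.75% of all, and 0 passed. At 0.55 mg/kg 0 of 10 passed, again beside 0% of all, with Stab1 alone at an unadjusted p under 0.05 (0.0043), beside 3.86%. At 0.05 mg/kg 0 of 10 passed beside 0% of all, and 0 of 10 had an unadjusted p under 0.05, beside 6.05%. All of these counts are limma's.

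Members below the vehicle mean numbered 6, 8, 9, 8 and 9 of 10 at 0.05, 0.55, 5.50, 55 and 550 mg/kg. The share of all probe sets below vehicle was 48.1%, 48.5%, 49.0%, 49.3% and 49.0% at those doses. At 5.50 mg/kg without replicate 1 the members again numbered 9, beside 50.3% of all. No member was fully separated from vehicle at any dose, as 0.454%, 0.345%, 0.264% and 0.345% of all probe sets were at 0.05, 0.55, 5.50 and 55 mg/kg. Because the doses share the vehicle arrays, the counts at the 5 doses cannot be read as separate observations.

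Against 55 mg/kg, the arrays at 550 mg/kg gave 0 of 10 calls, where 0.686% of all probe sets passed. Col1a1 (0.45 ± 0.18) and Lrat (0.26 ± 0.10) had an unadjusted p under 0.05, beside 9.43% of all, and 7 of 10 members lay lower at 550 mg/kg, beside 51.1%. This comparison does not use vehicle. The groups overlapped for all 10 members, and 1.15% of all probe sets did not overlap.

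A line over dose rank, from 0 for vehicle to 5 for the highest dose, sloped downward for the main probe sets of all 10 members, beside 49.1% of all probe sets. Both other probe sets of Pdgfrb sloped upward (0.017 and 0.010 per step), as did the second ones of Lyve1 (0.0038) and Kdr (0.0031), while that of Col1a1 sloped downward (-0.054). By adjusted p 0 of 10 passed, where 0.171% of all did. Among the main probe sets the steepest were that of Pdgfrb, whose direction the other probe sets do not share, with -0.059 ± 0.024 per step (adjusted p = 0.373), and Col3a1, with -0.050 ± 0.025 per step (adjusted p = 0.543). Stab1, at -0.035 ± 0.016 per step, and Pdgfrb had an unadjusted p under 0.05, beside 9.42% of all probe sets. A moderated F test for any difference among the 6 groups likewise passed 0 of 10, where 0.741% of all passed. The collagens and Lrat had unadjusted F-test p of 0.018 (Col1a1), 0.014 (Col3a1) and 0.044 (Lrat), beside 8.32% of all probe sets under 0.05, and adjusted p of 0.422, 0.373 and 0.578 (limma).

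Other genes of the same cells were read at 550 mg/kg from lists of known markers. Of 31 measured other endothelial markers, 0 rose and 0 fell, 4 had an unadjusted p under 0.05 and 22 lay below vehicle (median -0.054), where 8.67% of all probe sets had such a p and 49.0% lay below vehicle. Clec14a, an endothelial membrane lectin and the member of that list with the smallest p, averaged 7.67 ± 0.12 (SD, n = 6) at 550 mg/kg and 7.92 ± 0.23 (SD, n = 5) in vehicle (-0.25 ± 0.09, adjusted p = 0.312, limma). Of 21 other stellate and fibroblast markers, 0 rose and 0 fell, 3 had an unadjusted p under 0.05 and 17 lay below vehicle (median -0.107), beside the same shares of all. Colec11, a collectin secreted by stellate cells, differed by -0.27 ± 0.09 (adjusted p = 0.309, limma). Of 18 growth factors and receptors of these cells, 0 rose and 0 fell (median -0.025), where 0.499% of all probe sets passed. Angpt2, which encodes an angiopoietin that loosens vessel walls, differed by -0.45 ± 0.14 from a dim level (adjusted p = 0.195, limma).

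The matrix list held the single call among these companions. Of 34 measured matrix and matrix turnover genes 1 fell and 0 rose at 550 mg/kg, where 0.499% of all probe sets passed. Of the 34, 28 lay below vehicle (median -0.086) and 4 had an unadjusted p under 0.05, beside 49.0% and 8.67% of all. The gene that fell was Comp, which encodes a cartilage matrix protein, with 3.62 ± 0.18 (SD, n = 6) at 550 mg/kg and 4.34 ± 0.23 (SD, n = 5) in vehicle. It fell by 0.72 ± 0.16 (adjusted p = 0.0191, limma) from a dim level, at percentile 32.5 over all arrays. It did not pass without vehicle replicate 1 (adjusted p = 0.0623, limma), 4 (0.0579) or 5 (0.0754), nor without 550 mg/kg replicate 3 (0.0528). No member of any companion list was called at another dose against vehicle.

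At 5.50 and 55 mg/kg the matrix genes lay below vehicle together with the collagen members. At 5.50 mg/kg 29 of the 34 had a negative difference (median -0.227), beside 49.0% of all probe sets. Of the 29, 15 had an unadjusted p under 0.05, as had 1 positive one, beside 4.95% of all probe sets. Without replicate 1 of that group the median was -0.169 and 8 of 34 had an unadjusted p under 0.05, beside 3.75% of all probe sets. At 55 mg/kg 28 of 34 were negative (median -0.157) and 7 had an unadjusted p under 0.05, beside 49.3% and 4.20% of all probe sets. At 0.05 mg/kg 10 of 34 were negative (median 0.041), beside 48.1% of all probe sets. None of these genes passed the adjusted threshold at those doses, by limma. Many of them moved together from array to array, and 16 of the 34 stood among the 100 genes nearest to Col3a1, as described further on. Their counts are therefore not separate observations. The mean over the list ran between 6.86 and 7.27 in the arrays at 5.50 mg/kg and between 7.06 and 7.48 in vehicle, so the groups overlapped.

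Markers of the other cells of the lobe were read beside these values. The Kupffer cell and macrophage list lay below vehicle in all 10 of its measured genes at 550 mg/kg (median -0.215), beside 49.0% of all probe sets. By limma it had 0 calls and 0 genes at an unadjusted p under 0.05, beside 0.499% and 8.67% of all. Its mean over the 10 genes ran between 8.12 and 8.86 in the arrays at 550 mg/kg and between 8.56 and 8.95 in vehicle. Clec4f, the lectin receptor of rodent Kupffer cells, differed by -0.34 ± 0.20 (adjusted p = 0.681, limma). At 5.50 mg/kg the same list had 9 of 10 genes below vehicle (median -0.126), but 4 of 10 (median 0.048) without replicate 1. The shares of all probe sets below vehicle were 49.0% with that array and 50.3% without it. At 0.05, 0.55 and 55 mg/kg 9, 10 and 7 of its 10 genes lay below vehicle (medians -0.115, -0.256 and -0.047). Of all probe sets 48.1%, 48.5% and 49.3% did so. The doses share the vehicle arrays, so these counts are not separate observations. Of 10 hepatocyte genes 1 fell at 550 mg/kg, where 0.499% of all probe sets passed. It was Apoa1, the main apolipoprotein of high-density lipoprotein, which fell by 0.51 ± 0.06 (adjusted p = 7.3e-06, limma). Of the 10, 6 lay below vehicle, beside 49.0% of all, and the median difference was -0.027. The list's mean, which includes Apoa1, ran between 13.21 and 13.26 at 550 mg/kg and between 13.28 and 13.33 in vehicle.

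The remaining lists had 0 calls at 550 mg/kg, where 0.499% of all probe sets passed. Medians were 0.030 over 6 cholangiocyte genes, -0.007 over 5 smooth muscle genes, -0.057 over 7 lymphocyte genes and -0.455 over 3 red blood cell genes. The members with the smallest p were Anxa4, an annexin of bile duct cells (0.11 ± 0.07, adjusted p = 0.735), Actg2, a smooth muscle actin (0.12 ± 0.11, adjusted p = 0.848), Cd3g, a chain of the T cell receptor complex (-0.31 ± 0.12, adjusted p = 0.368), and Hbb, a haemoglobin chain (-0.46 ± 0.15, adjusted p = 0.227). The part of the Kupffer, hepatocyte and red blood cell differences in the marker values was not tested.

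**Figure D3:**
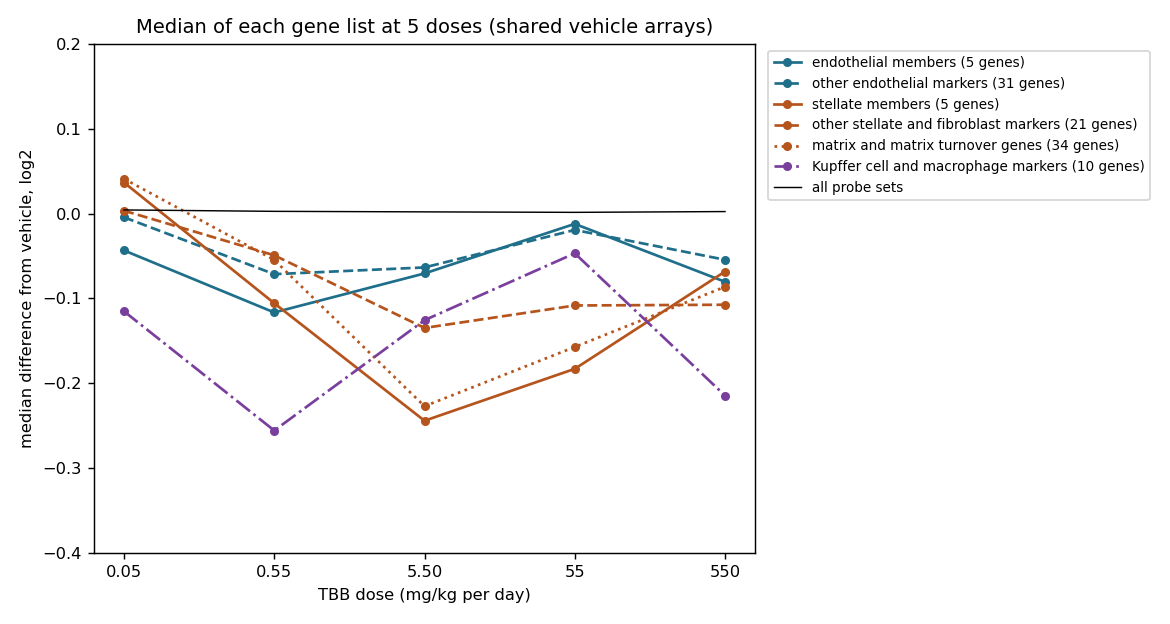
Median difference from vehicle over the genes of each list (vertical axis, log2) at the 5 TBB doses in mg/kg per day (horizontal axis). Lines join the endothelial and stellate members, 4 companion lists and all probe sets, and all doses share the same vehicle arrays. Stellate members and matrix genes are lowest at 5.50 mg/kg, with medians of -0.244 and -0.227, and the line of all probe sets stays at 0.

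Arrays of one dose group differed among themselves, and these differences were used to ask which markers go together from sample to sample. Within groups, Col1a1, Pdgfrb and Col3a1 varied more than most probe sets, with standard deviations of 0.33, 0.25 and 0.24 at percentiles 96.8, 93.2 and 91.5 of all. Lyve1 varied little, at 0.12 and percentile 28.5, and the median of all probe sets was 0.14. Correlations were computed over 35 arrays after subtraction of group means, with 100000 permutations of arrays within groups and adjustment over all 45 pairs of members.

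**Figure D4:**
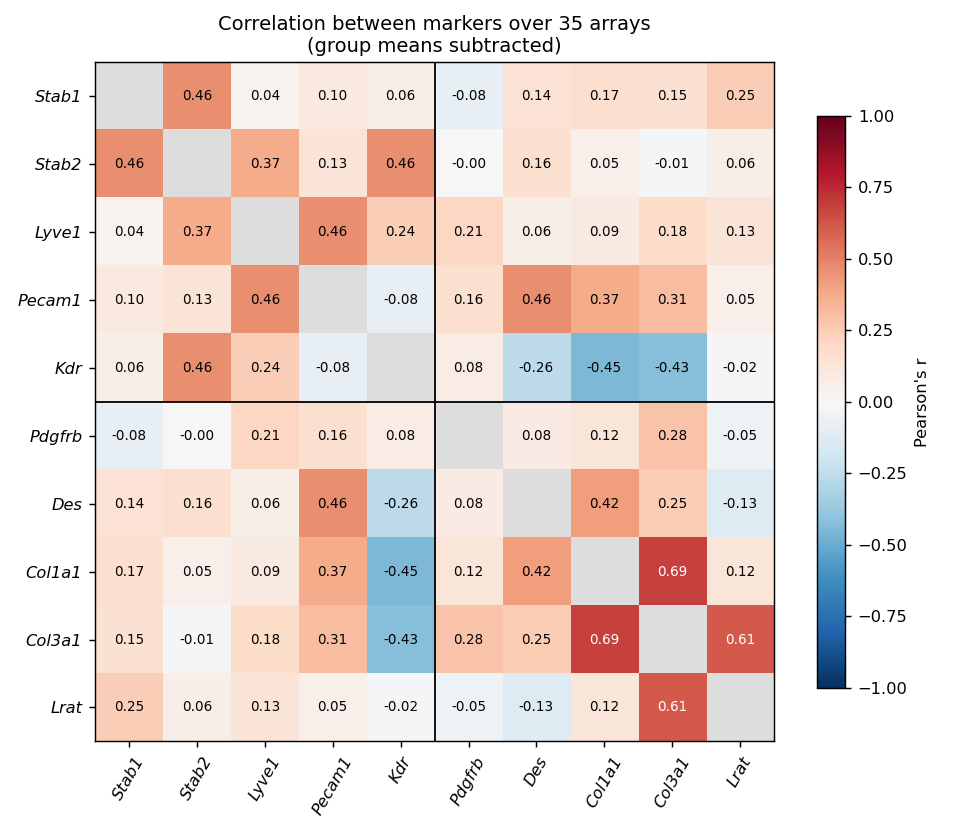
Pearson's r between each pair of the 10 markers over 35 arrays, group means subtracted (colour scale from -1 to 1, values printed in the cells). Black lines divide the endothelial from the stellate genes. The strongest cells are Col1a1 with Col3a1 at 0.69 and Lrat with Col3a1 at 0.61, both inside the stellate block.

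Of the 45 pairs, 2 passed, both stellate. Col1a1 and Col3a1, whose products assemble into fibrils together, had r = 0.69 (permutation p = 4e-05, adjusted p = 0.0018) and Spearman's rho = 0.61 (permutation p = 0.00064, adjusted p = 0.014). Without the 2 arrays farthest from the median of Col1a1, r was 0.63. Within single groups r was 0.05 at 5.50 mg/kg and between 0.61 and 0.94 in vehicle and the other doses, over 5 or 6 arrays each. Col3a1 and Lrat had r = 0.61 (permutation p = 0.00024, adjusted p = 0.0054) and rho = 0.60 (permutation p = 0.00035, adjusted p = 0.014), and r = 0.51 without the 2 arrays farthest on Col3a1. Within single groups this r ran between 0.30 at 550 mg/kg and 0.79 at 5.50 mg/kg. Col1a1 and Lrat, each tied to Col3a1, had r = 0.12 with each other. Many genes outside the members followed Col3a1 more closely. By r with Col3a1, Col1a1 ranked 87 and Lrat 140 among 14216 genes. Col3a1 ranked 27 by r with Col1a1 and 27 by r with Lrat.

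Of the 10 pairs of endothelial members 0 passed, with r between -0.08 and 0.46 and a median of 0.19, although 3 had an unadjusted p under 0.05. Those were Stab1 with Stab2, Stab2 with Kdr and Lyve1 with Pecam1, each at 0.46. Of the 25 pairs that joined an endothelial with a stellate member 0 passed, with a median of 0.087 and a range between -0.45 and 0.46. Here too 3 had an unadjusted p under 0.05. Those were Pecam1 with Des (r = 0.46, permutation p = 0.0082, adjusted p = 0.074), Kdr with Col1a1 and Kdr with Col3a1. Kdr had r = -0.45 with Col1a1 and -0.43 with Col3a1, and -0.23 and -0.31 without the 2 arrays farthest on Kdr. Without 5.50 mg/kg replicate 1 the r of Kdr with Col3a1 was -0.54 and passed (permutation, adjusted p = 0.028), as did Col1a1 with Col3a1 (0.75) and Col3a1 with Lrat (0.54).

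**Figure D5:**
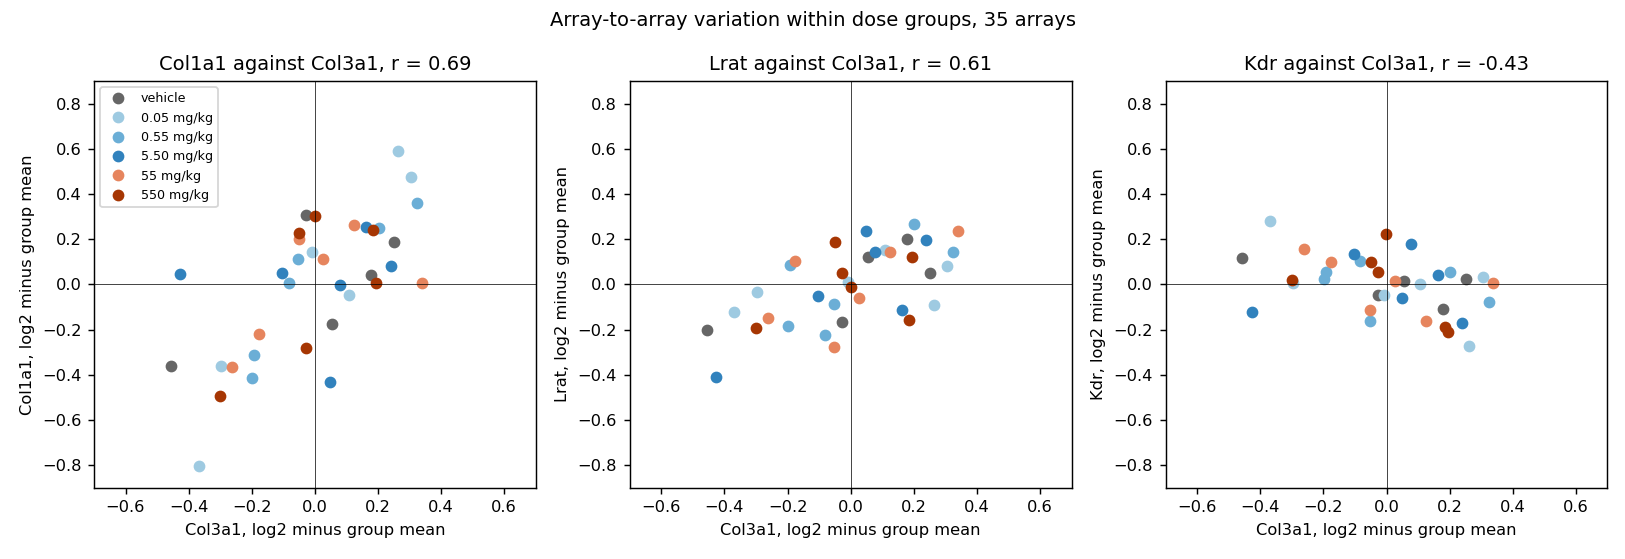
Col1a1, Lrat and Kdr (vertical axes) against Col3a1 (horizontal axes) on 35 arrays, each value as log2 minus its group mean. Points are arrays, coloured by group from vehicle through 550 mg/kg. Col1a1 and Lrat climb with Col3a1 (r = 0.69 and 0.61), Kdr declines (r = -0.43), and the 5.50 mg/kg array farthest left carries low values of Col3a1 and Lrat.

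The genes nearest to each member were then listed over 14216 genes by the same within-group r, as a description. Kdr was followed most closely by Bmp2 (0.78), a morphogen made by sinusoidal endothelium, then by Plek (0.71), a platelet and leukocyte protein, and the endothelial mucin Emcn (0.70). Stab2 was nearest to Mrc1 (0.71), the mannose receptor of sinusoidal endothelium and macrophages, then Palldl1 (0.62) and the microtubule gene Ckap5 (0.60). Lyve1 was nearest to Cavin2 (0.71), a caveolar protein, Ptpn6 (0.69), a phosphatase of blood cells, and the endothelial receptor Cd93 (0.69). Among the 100 genes nearest to Lyve1 and to Kdr stood 7 of the 31 other endothelial markers each, a list that makes up 0.218% of all genes. For Stab2 the count was 4, for Stab1 it was 1 and for Pecam1 it was 0.

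Stab1 and Pecam1 had other companions. Stab1 was nearest to the centrosomal gene Cep290 (0.67), LOC100912002 (0.63) and the reticulon Rtn1 (0.63). Pecam1 was nearest to Calhm2 (0.81) and the translation initiation factors Eif3h (0.73) and Eif1ax (0.70). A count of ribosomal protein genes was added after these lists were seen. Of the 56 such genes measured (0.394% of all genes), 18 were among the 100 nearest to Pecam1 and 26 among those nearest to Des, and 0 among those of the other 8 members. Des itself was nearest to the ribosomal protein genes Rps23 (0.65) and Rpl7 (0.64) and to Tmem119 (0.63).

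The collagens and Lrat lay among matrix genes. Col3a1 was nearest to Igfbp7 (0.91), a secreted binding protein of growth factors, and the matrix proteins Smoc2 (0.91) and Sparc (0.91). Its 100 nearest held 16 of the 34 matrix genes, which make up 0.239% of all genes. They also held 9 of the 21 other stellate and fibroblast markers, a list that makes up 0.148% of all genes. Among the 9 were Pdgfra, Dcn, Cygb and Lhx2. Without 5.50 mg/kg replicate 1 these counts were 16 and 5. Col1a1 was nearest to the matrix gene Mgp (0.85), the collagen Col8a2 (0.84) and Gpx3 (0.84), a secreted peroxidase. Its 100 nearest held 13 matrix genes and 4 other stellate and fibroblast markers (Dcn, Lum, Tagln and Vim). Lrat was nearest to the morphogen Bmp5 (0.77), Osbpl5 (0.75) and the gap junction gene Gja1 (0.73). Its 100 nearest held 7 matrix genes and 5 other stellate and fibroblast markers (Pdgfra, Colec11, Reln, Lhx2 and Hgf), and 4 and 4 without that array.

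The main probe set of Pdgfrb was nearest to Abhd11 (0.72), Dapk1 (0.72) and Skida1 (0.69). Its 100 nearest held 0 matrix genes and 0 other stellate and fibroblast markers. Its r with the other stellate members was between -0.05 and 0.28. These counts tied the members unevenly to the lists of other markers. The stellate list also holds fibroblast markers, so it does not bear on stellate cells alone. Col1a1, Col3a1, Lrat, Stab2, Lyve1 and Kdr had between 4 and 9 genes of their list among their 100 nearest genes. Des and Stab1 had 1 each, and Pdgfrb and Pecam1 had 0. The 4 near Col1a1 (Dcn, Lum, Tagln and Vim) held none of the 5 that stood near Lrat.

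Array measures moved with several members, and 1 relation passed the adjusted test. Of 30 correlations of the 10 members with 3 array measures (the interquartile range of the array and the 3′ minus 5′ difference of actin and of GAPDH controls), 1 passed and 9, over 7 members, had an unadjusted p under 0.05. Lyve1 followed the interquartile range (r = 0.62, permutation p = 0.00057, adjusted p = 0.017; rho = 0.54, permutation p = 0.0028, adjusted p = 0.083). Without the 2 arrays farthest on that range r was 0.52. Without 5.50 mg/kg replicate 1 the r was 0.58 and did not pass (permutation, adjusted p = 0.066). Kdr went against the 3′ minus 5′ difference of actin (r = -0.47, permutation p = 0.013, adjusted p = 0.094) and of GAPDH (r = -0.43, permutation p = 0.019, adjusted p = 0.098). Lrat did so too (r = -0.51 for actin, permutation p = 0.0078, adjusted p = 0.078, and r = -0.41 for GAPDH, adjusted p = 0.15), but without the 2 arrays farthest on the measure these were -0.29 and -0.17. Col1a1 and Des went with the GAPDH difference (r = 0.41 and 0.38, permutation, adjusted p = 0.098 and 0.16). Col3a1 and Pdgfrb went with the interquartile range (r = 0.52 and 0.38, permutation, adjusted p = 0.078 and 0.16). With that array left out, 6 of the 30 had an unadjusted p under 0.05 and 0 passed. These correlations were computed for the members alone and without the hexokinase controls. The share of all probe sets that follow such measures is not known, so the counts do not set the members apart. The part of these array measures in the values of the members and in the correlations between them was not tested.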

How the data were processed

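The deposited table holds log2 expression values per probe set of single-colour Affymetrix arrays, which the authors computed by RMA (affy package), as the submitters' processing notes name it, with versions not given in the sources used here. By its usual definition RMA corrects background, gives every array nearly the same distribution of values and summarises the probes of a set. A shift shared by most genes would thus be removed, and differences of dim genes are compressed. RNA had an integrity number of at least 7.0, per the labels' protocols.

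Of 31099 probe sets, 57 Affymetrix controls were left out and 31042 tested. The platform annotation gave 20826 of these a single symbol, 436 several and 9780 none, and 20758 were matched by Entrez identifier to RefSeq genes of assembly GRCr8. A mean per group, without a block, was estimated by limma 3.58.1 under R 4.3.3 and moderated with eBayes, where the series design text names another linear-model package that was not run here. The slope used dose rank. Files were read with version 1.17.8 of data.table, and correlations and figures were made with Python 3.11.15 and matplotlib 3.10.9. The fits were tested on simulated data. The median standard error of a difference at 550 mg/kg was 0.085 and the median 95% half-width 0.17, and the number of arrays limits this precision.

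The 10 members, the companion lists and the tests were chosen with earlier results of these data known. Named genes were all members, Cyp1a1, up to 4 called genes of each companion list at 550 mg/kg or else the one with the smallest p, any list gene called at another dose, and the 3 genes nearest to each member. Lists were described by counts and medians over 1 probe set per gene. Measured genes numbered 31 of 37 other endothelial, 21 of 23 other stellate and fibroblast, 34 of 34 matrix, 18 of 23 growth factor, 10 of 13 Kupffer, 10 of 11 hepatocyte, 6 of 7 cholangiocyte, 5 of 5 smooth muscle, 7 of 8 lymphocyte and 3 of 5 red blood cell genes.

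Settings tried in turn were dropping the 40% dimmest probe sets, 1 probe set or the mean of all probe sets per gene, subtracted array medians, cyclic loess, trend and robust settings, array weights, a block for replicate number, fitting only the 2 groups compared, and leaving out each array in turn. Correlations were repeated without group centring, in vehicle and the 3 lowest doses, after cyclic loess and, chosen after seeing the data, without 5.50 mg/kg replicate 1.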

Additional observations from a re-analysis of the deposited data

Results flagged for a closer look

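Of 90 groups of arrays examined over the 15 probe sets, 2 held an array farther from the rest than Dixon's 95% critical value allows, where chance alone singles out about 1 group in 20, or 4.5 of them. Both were Lyve1. On its main probe set the lowest array at 0.05 mg/kg, replicate 4, read 9.97143 against 10.08 to 10.13 for the other 5. On its other probe set the highest array at 550 mg/kg, replicate 4, read 10.1449 against 9.87 to 9.96. No probe set of a member had all arrays of a pair of doses on opposite sides of vehicle.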

How the results depend on the processing

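All 159 alternatives run on the 8 counts of members passing the test gave 0, and the lowest adjusted p of any member in any of them was 0.137 (limma). The 10 list medians moved by less than the spread of the list means between replicates (0.087 endothelial, 0.151 stellate) in all 200 of their alternatives. This is a spread larger in size than most of the medians, so a median near 0 could change sign within it. Leaving out single arrays, the endothelial medians ran between -0.043 and 0.021 at 55 mg/kg and between -0.087 and 0.0045 at 0.05 mg/kg, and the stellate one between -0.061 and 0.132 at 0.05 mg/kg. The cause of the changes below was not tested. Of 1210 alternatives of the 60 member differences, 67 turned the sign, and no difference whose sign turned was larger in size than 0.085 with all arrays. With cyclic loess Kdr at 55 mg/kg was 0.0059, Pdgfrb at 0.55 mg/kg -0.0016, and Lyve1 and Lrat at 0.05 mg/kg 0.0022 and 0.0049. With array weights Pdgfrb and Col3a1 at 0.55 mg/kg were -0.014 and -0.027. With each gene's probe sets averaged, Pdgfrb at 55 mg/kg was 0.076 and Kdr at 5.50 mg/kg -0.00054, and Pdgfrb at 550 mg/kg, -0.30 on its main probe set, was -0.058.

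Leaving out single arrays turned other signs. At 550 mg/kg against vehicle the ranges were -0.043 to 0.026 for Stab2, -0.043 to 0.146 for Col1a1 and -0.155 to 0.021 for Col3a1. At 55 mg/kg they were -0.0073 to 0.057 for Stab2, -0.036 to 0.076 for Lyve1, -0.043 to 0.021 for Kdr and -0.174 to 0.037 for Pdgfrb. At 5.50 mg/kg they were -0.070 to 0.027 for Stab2 and -0.033 to 0.037 for Kdr. At 0.55 mg/kg they were -0.090 to 0.020 for Stab2, -0.095 to 0.116 for Pdgfrb and -0.106 to 0.071 for Col3a1. At 0.05 mg/kg they were -0.058 to 0.036 for Lyve1, -0.099 to 0.011 for Kdr, -0.061 to 0.150 for Pdgfrb, -0.034 to 0.246 for Col1a1 and -0.069 to 0.031 for Lrat. For 550 against 55 mg/kg they were -0.050 to 0.023 for Stab1, -0.075 to 0.0040 for Stab2, -0.052 to 0.012 for Pecam1 and -0.074 to 0.0022 for Des.

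Replicate numbers 1 to 6 are shared by the groups, and the labels do not say that a number marks a shared animal, batch or day. Of 85 pairs of same-numbered arrays 20% had deviations that correlated above 0.1, against 22.4% of 425 other pairs (median r -0.0092 and -0.00097). With 6 numbers to choose from, 7 of 35 arrays were closest to their own number. With the replicate block 0 members passed at 550 mg/kg (lowest adjusted p = 0.367, limma), 115 of all probe sets passed there instead of 155, and Lrat at 0.05 mg/kg was 0.011. The 155 ranged over the other alternatives from 41, with only the 2 groups fitted, to 198, without the dimmest probe sets. In that last case 18625 probe sets were tested instead of 31042. The count was 77 without vehicle replicate 3, 82 without vehicle replicate 1 and 88 without 550 mg/kg replicate 2. Apoa1 passed in all 20 of its alternatives and Comp in 15 of 19. Pairs of members passing by Pearson's r (by Spearman's rho) numbered 2 (2) without group centring, 3 (4) with cyclic loess, 3 (0) in vehicle and the 3 lowest doses and 3 (4) without 5.50 mg/kg replicate 1. The third by r was Des with Col1a1 in vehicle and the 3 lowest doses, and Kdr with Col3a1 in the other cases of 3. Both cases of 4 by rho also held Pecam1 with Des (permutation, adjusted p = 0.034 in each). For a typical probe set, differences under the median unadjusted half-width of 0.17 could not be told from 0 with these arrays. Some members had wider intervals, such as Col1a1 at 550 mg/kg (-0.34 to 0.43). Under the adjusted threshold, differences of -0.42 (Col1a1 at 5.50 mg/kg) and -0.33 (Lrat at 55 mg/kg) did not pass either.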

Other observations

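Some genes of the companion lists had large differences that did not pass the test; they were chosen after their values were seen. Lox, which encodes the lysyl oxidase that cross-links collagen, averaged 6.83 ± 0.43 (SD, n = 6) at 550 mg/kg and 8.40 ± 0.76 (SD, n = 5) in vehicle, a difference of -1.57 ± 0.44 (adjusted p = 0.122, limma). Col6a3, a chain of microfibrillar collagen, differed by -0.74 ± 0.26 at 550 mg/kg (adjusted p = 0.304, limma) and by -0.71 ± 0.26 at 5.50 mg/kg (adjusted p = 0.998, limma), where it was -0.60 without replicate 1. Lum, which encodes the matrix proteoglycan lumican, averaged 5.49 ± 0.73 (SD, n = 6) at 5.50 mg/kg and 6.86 ± 0.89 (SD, n = 5) in vehicle, a difference of -1.37 ± 0.53 (adjusted p = 0.998, limma), or -1.29 without 5.50 mg/kg replicate 1.

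The 10 genes nearest to the main probe set of Pdgfrb over 35 arrays, group means subtracted, included the circadian clock genes Bmal1 (r = 0.68), Cry1 (r = 0.68) and Npas2 (r = 0.66), also chosen after their values were seen. Without 5.50 mg/kg replicate 1 these were 0.65, 0.66 and 0.63. The other probe sets of Pdgfrb did not follow the main one (r = -0.34 and -0.31).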
